A study of Drosophila melanogaster
Mus musculus with 6 samples.

Results

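The wild-type H3.1 line was mapped for 2 histone marks, and this account sets those marks side by side along the genome. The bins described were all 10 kb intervals of the deposited table with signal in any of its 4 libraries, which gave 248945 of 253926 intervals; 322 intervals of 10 kb had no signal and 4659 had other widths. Of the bins, 247504 lay on the 19 autosomes and X and were analysed, and 1441 lay on Y or on unplaced sequence. The cells were C3H10T1/2, a mesenchymal progenitor line from embryos of the C3H mouse strain, at passages 10 to 15. In this line they stably expressed histone H3.1 of wild-type sequence with a FLAG-HA tag (WT); a second line with the same tag and histone carried methionine in place of lysine 36 (K36M) and is used only in 1 comparison near the end. The tagged histone was expressed beside the cells' own H3, and the labels do not say whether either line is a single clone. Chromatin cut to mononucleosomes with micrococcal nuclease was immunoprecipitated for H3K36me2 or for H3K27me3 after chromatin of Drosophila S2 cells had been added as an external reference. There was 1 library per mark and line, so libraries could not be tested against each other and p-values are absent. The 95% intervals given after a value are exact Poisson intervals on its reads; they cover counting error only, since sequencing copies of a molecule could not be removed by molecular identifiers.

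H3K36me2 is written by methyltransferases of the NSD family and by ASH1L, and it covers broad stretches of intergenic and genic euchromatin. H3K27me3 is written by Polycomb repressive complex 2 and marks silent developmental genes, wider facultative heterochromatin and, in female mammals, the inactive X chromosome. Methylation of lysine 36 is known to hinder Polycomb repressive complex 2 on the same histone tail, so the marks are described as mutually exclusive. The comparison asks how far, and where, that holds along the chromosomes of this line.

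Values are scaled reads, meaning reads times 1 factor per library that the authors applied. The factors and antibodies differ between the marks, so a level of one mark was never compared with a level of the other; each was expressed in multiples of its own median over the 247504 bins. The median bin held 96.7 scaled reads of H3K36me2 (152 reads, a 95% counting half-width of 15.9%) and 6.0 of H3K27me3 (55 reads, 26.4%). The middle 50% of bins held 35.0 to 220 scaled reads of H3K36me2, and 3.16 to 16.2 of H3K27me3. Over all bins H3K27me3 was the more concentrated mark: the highest 10% of bins held 32.5% of H3K36me2 reads and 43.4% of H3K27me3 reads, or 29.9% and 42.5% once the most extreme bins of either mark were left out. On X the order was the other one, with 33.0% and 28.0% in the highest 10% of X bins. No input values were used here, so copy number and mappability are not divided out of any level.

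A bin was called high in a mark at 2 times that mark's median or more. H3K36me2 was high in 73450 bins, 29.7% of those tested, and H3K27me3 in 78192 bins, 31.6%. Both were high in 16796 bins (6.79%; 7.55% of X bins and 6.74% of autosomal bins), H3K36me2 alone in 22.9%, H3K27me3 alone in 24.8%, and neither in 45.5%. Of the H3K36me2-high bins 22.9% were also H3K27me3-high, and of the H3K27me3-high bins 21.5% were also H3K36me2-high. Among bins high in H3K36me2, high H3K27me3 was thus less frequent than the 31.6% over all bins, but it was far from absent. Bins within 10% of a threshold numbered 17555 for H3K36me2 and 11514 for H3K27me3, and counting error alone could move such bins across it. The 95% counting half-width at the threshold was 11.2% for H3K36me2 and 18.7% for H3K27me3. Bins further than 10% away could thus also cross, above all for H3K27me3.

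The separation of the marks sharpened with level. At 1.5 times the median, 36.4% of H3K36me2-high bins were also H3K27me3-high, against 38.2% of all bins. At 3 times the median these shares were 5.19% and 23.0%, and at 4 times the median 1.1% and 17.3%. Among the highest 10% of bins of each mark only 104 bins were shared, which is 0.418% of each list, against 10.0% of all bins. Overlap was therefore nearly that of all bins at moderate levels and close to nil at high levels. In the highest 1% the shared fraction returned to 0.843%, close to the 1.00% of all bins, through 21 bins. In all, 23 bins exceeded 8 times the median in both marks; they lay on 9 chromosomes, with 8 on chromosome 11 between 3020001 and 3100000 and 4 on chromosome 9 between 3000001 and 3040000 (mm9). The most extreme bin, on chromosome 2 at 98500001 to 98510000, held 2.58% of H3K36me2 reads and 0.673% of H3K27me3 reads. Copy number of these bins was not tested.

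**Figure D1:**
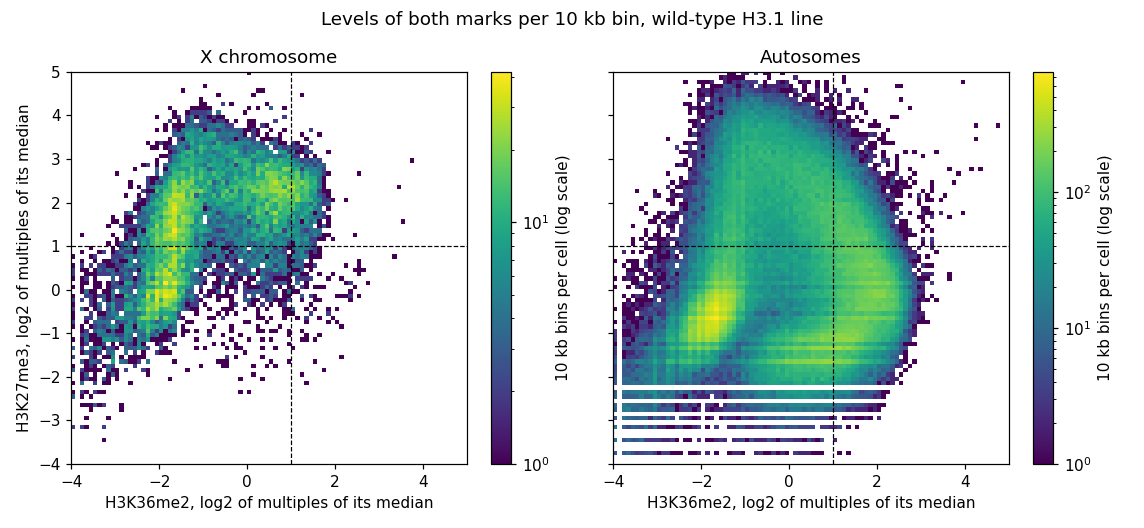
Number of 10 kb bins by level of H3K36me2 (horizontal) and H3K27me3 (vertical), each as log2 of multiples of its genome median, on X (left) and autosomes (right), in WT. Dashed lines mark 2 times the median; blank lines at low values are whole reads, and 779 bins on X and 1693 on autosomes fall outside the plotted range. Of the bins to the right of the vertical line, 21.7% on autosomes and 85.9% on X are also above the horizontal one. Bins beyond both lines make up 6.74% of autosomal bins and 7.55% of X bins.

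On autosomes H3K27me3 did not fall steadily as H3K36me2 rose. Autosomal bins with H3K36me2 under 0.25 times its median had a median of 2.83 scaled reads of H3K27me3 and were H3K27me3-high in 3.46%. Bins poorest in H3K36me2 were thus also poor in H3K27me3, and their mappability was not tested. The 60705 bins between 0.25 and 0.5 times the median, the largest class, had 5.12 and 23.1%. Between 0.5 and 1 times the median H3K27me3 peaked, with a median of 16.2 and 56.1% of 33011 bins high. The rate of H3K27me3-high bins was thus highest just below the genome median of H3K36me2, and not at its lowest levels.

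Between 1 and 8 times the median of H3K36me2 the spread of H3K27me3 narrowed. Bins at 1 to 2 times the H3K36me2 median were divided: 41.7% were high in H3K27me3 and 33.4% were below 0.5 times its median. At 2 to 4 times, 25.9% were high and 21.8% low. At 4 to 8 times, 16180 bins had a median of 5.56 scaled reads of H3K27me3 with a middle 50% of 4.03 to 7.74, and 6.86% were high and 10.1% low. Bins at 4 to 8 times the H3K36me2 median therefore held H3K27me3 close to its genome median of 6.0. The 103 bins at 8 times or more, which include the autosomal bins extreme in both marks, had a median of 16.2 and were H3K27me3-high in 60.2%. Depletion of H3K27me3 below 0.5 times its median was more frequent at 1 to 4 times the H3K36me2 median than at 4 to 8 times. How much of a level near the median is background was not tested.

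Seen from the other mark, autosomal bins at 8 or more times the H3K27me3 median were H3K36me2-high in 3.61% of 13691 cases, against 31.1% of all autosomal bins. They were rarely empty of H3K36me2, with a median of 68.1 scaled reads and a middle 50% of 49.0 to 102. At 4 to 8 times the H3K27me3 median 16.0% of bins were H3K36me2-high, at 2 to 4 times 36.3%, and at 1 to 2 times 47.8%. Moderate H3K27me3 and high H3K36me2 were hence often found in the same 10 kb, while strong H3K27me3 and high H3K36me2 were not. A bin averages over about 10 kb, both alleles and all cells, so a bin high in both does not show both marks on the same nucleosome.

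Rank correlation across bins is a poor summary of this shape and is given as a description, since neighbouring bins are not independent and share libraries and mappability. The Spearman correlation between the marks on autosomes ranged from -0.10 on chromosome 13 to 0.25 on chromosome 14, with a median of 0.08. Over 1 Mb windows the median was 0.36 and 18 of 19 autosomes were positive, against 14 of 19 over 10 kb bins. Megabases with more of one mark thus tended to hold more of the other as well. The separation of strong bins described above did not appear as a negative median correlation at 10 kb. The part of copy number or mappability in these correlations was not tested.

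Domains were defined as unbroken runs of high bins spanning 50 kb or more; a run ended at any interval of another width, so lengths are lower limits. On autosomes H3K36me2 formed 4330 domains that covered 23.0% of bins, with a longest domain of 1590 kb. H3K27me3 formed 4206 autosomal domains that covered 22.1% of bins, with a longest of 800 kb. For both marks the median length was 90 kb and the N50, the length at or above which domains hold at least 50% of the covered sequence, was 150 kb. The bodies of the length distributions were thus alike. The tails differed: 56 H3K36me2 domains and 26 H3K27me3 domains reached 500 kb, and 3 and 0 reached 1000 kb.

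**Figure D2:**
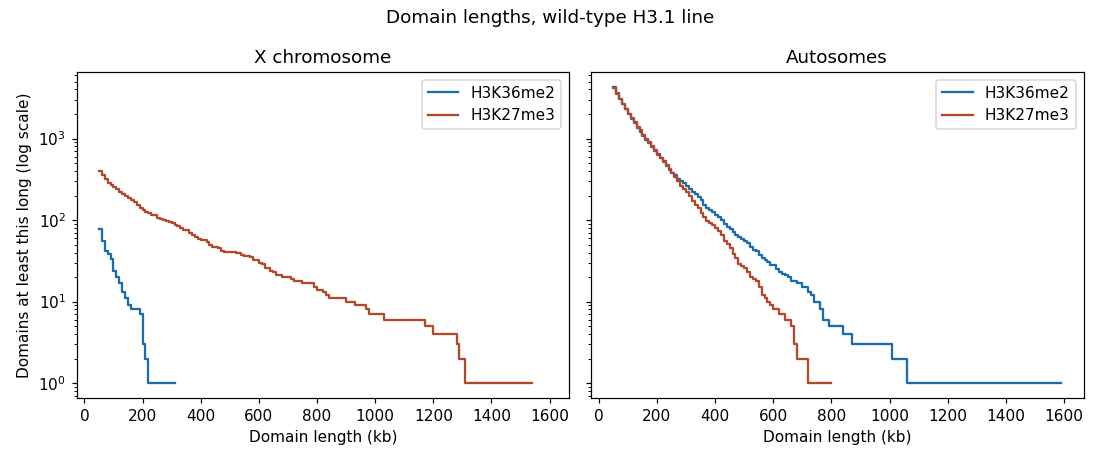
Number of domains (log scale) at least as long as the length on the horizontal axis (kb), for H3K36me2 and H3K27me3 on X (left) and autosomes (right) in WT. On autosomes 650 domains of H3K36me2 and 632 of H3K27me3 reach 200 kb, and H3K36me2 has the longer tail, to 1590 kb; on X, H3K27me3 reaches 1540 kb and H3K36me2 only 310 kb.

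Without any threshold, H3K36me2 was the mark that varied over longer distances on autosomes. Its Spearman correlation with itself was 0.91 between adjacent bins, 0.76 at 100 kb, 0.47 at 500 kb and 0.30 at 1000 kb. For H3K27me3 the same values were 0.81, 0.37, 0.11 and 0.07. H3K27me3 on autosomes was therefore organised in islands whose level said little about sequence 500 kb away, whereas H3K36me2 levels persisted. With H3K36me2 reads thinned to the median depth of H3K27me3, the median over 20 chromosomes at 100 kb was 0.74 for H3K36me2, against 0.75 unthinned and 0.36 for H3K27me3; other effects of depth were not tested.

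Longer domains were stronger domains for either mark, which the calling rule itself favours. A run ended at any single bin below the threshold, and weaker stretches lie closer to it. Autosomal H3K36me2 domains of 50 to 90 kb had a median level of 281 scaled reads, those of 100 to 190 kb 315, those of 200 to 490 kb 357, and those of 500 kb or more 404. H3K27me3 inside them stayed flat, at 7.12, 6.92, 6.89 and 6.95. The share of H3K36me2 domains with 50% or more of their bins high in H3K27me3 dropped over the same classes, through 20.3%, 13.3% and 8.08% to 1.79%. The share with no H3K27me3-high bin dropped as well, through 46.7%, 39.7% and 29.1% to 25%. Longer domains hold more bins, and the part of bin number in both trends was not tested. Autosomal H3K27me3 domains went through 25.5, 33.4, 41.2 and 48.7 scaled reads in these length classes. H3K36me2 inside them was lower the longer they were, at 125, 97.2, 87.4 and 68.4. No H3K27me3 domain of 500 kb or more on autosomes had 50% of its bins high in H3K36me2, of 26 such domains, while 24.0% of those of 50 to 90 kb did. H3K27me3 domains with no H3K36me2-high bin also became rarer, from 51% at 50 to 90 kb to 34.6% at 500 kb or more.

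The longest H3K36me2 domain lay on chromosome 11 at 111050001 to 112640000 (mm9) and averaged 585 scaled reads per bin (582 to 588), with single bins between 217 and 927. H3K27me3 averaged 11.8 (11.6 to 12) in it and was high in 27% of its bins, with a highest bin of 61.3. The next in length, on chromosome 10 at 37430001 to 38480000, averaged 513 for H3K36me2 and 4.56 for H3K27me3, with no bin high in H3K27me3. Thus the longest domain held bins high in both marks, and the next held H3K36me2 alone.

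Of the next 4 in length, the domain on chromosome 10 at 26070001 to 27070000 spanned 1000 kb and averaged 366 scaled reads of H3K36me2, and the domain on chromosome 18 at 8250001 to 9110000 spanned 860 kb and averaged 481. The domain on chromosome 4 (6370001 to 7200000) spanned 830 kb and averaged 425, and the domain on chromosome 15 (62080001 to 62860000) spanned 780 kb and averaged 466. H3K27me3 averaged 5.53 to 8.24 scaled reads in these, and 0% to 13% of their bins were H3K27me3-high. Ranked by median level instead, a choice made after the values were seen, the domain on chromosome 13 at 12720001 to 13200000 (480 kb) came next after the extreme bins of chromosome 11, with a median bin of 726 scaled reads of H3K36me2 and 12.4 of H3K27me3. Of its bins 54.2% were high in H3K27me3, while its median bin held 7.51 times the genome median of H3K36me2.

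All 6 of the longest H3K27me3 domains were on X, and 47 of the longest 100 were on X, against 0 of the longest 100 for H3K36me2. X held 8.59% of all H3K27me3 domains and 1.77% of all H3K36me2 domains. The longest, at 136000001 to 137540000 on X, averaged 35.2 scaled reads of H3K27me3 (34.9 to 35.5) and 133 of H3K36me2 (131 to 134). The other 5 spanned 1160 to 1300 kb and averaged 27.5 to 50.7 scaled reads of H3K27me3 and 57.2 to 120 of H3K36me2. The longest H3K27me3 domains thus combined H3K27me3 at 4.58 to 8.45 times its genome median with H3K36me2 at 0.592 to 1.37 times its own. The longest on an autosome, named after the values were seen, lay on chromosome 9 at 44770001 to 45570000 and averaged 70.8 scaled reads of H3K27me3 and 49.2 of H3K36me2.

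Apart from a domain with bins extreme in both marks, the strongest H3K27me3 domain was on chromosome 15 at 102680001 to 102980000, with an average of 155 scaled reads of H3K27me3 (154 to 157) and single bins between 29.5 and 225. H3K36me2 averaged 108 there, but its median bin was 59.1 and its highest 446, so H3K36me2 was unevenly spread within the 300 kb. Next came chromosome 17 at 6470001 to 6550000, with 123 scaled reads of H3K27me3, and chromosome 13 at 41240001 to 41350000, with 115 scaled reads of H3K27me3 and none of its bins high in H3K36me2. By mean level, a domain on chromosome 11 at 3000001 to 3100000 ranked above these with 275 scaled reads of H3K27me3, but its H3K36me2 of 2093 was extreme too. The 4 H3K36me2 domains highest by mean, on chromosomes 9, 11, 12 and 15, likewise rested on bins extreme in both marks; the first, on chromosome 9 at 35090001 to 35140000, averaged 12051 scaled reads of H3K36me2 while its median bin held 378. Positions stand without gene names because no annotation of the mm9 build was used.

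**Figure D3:**
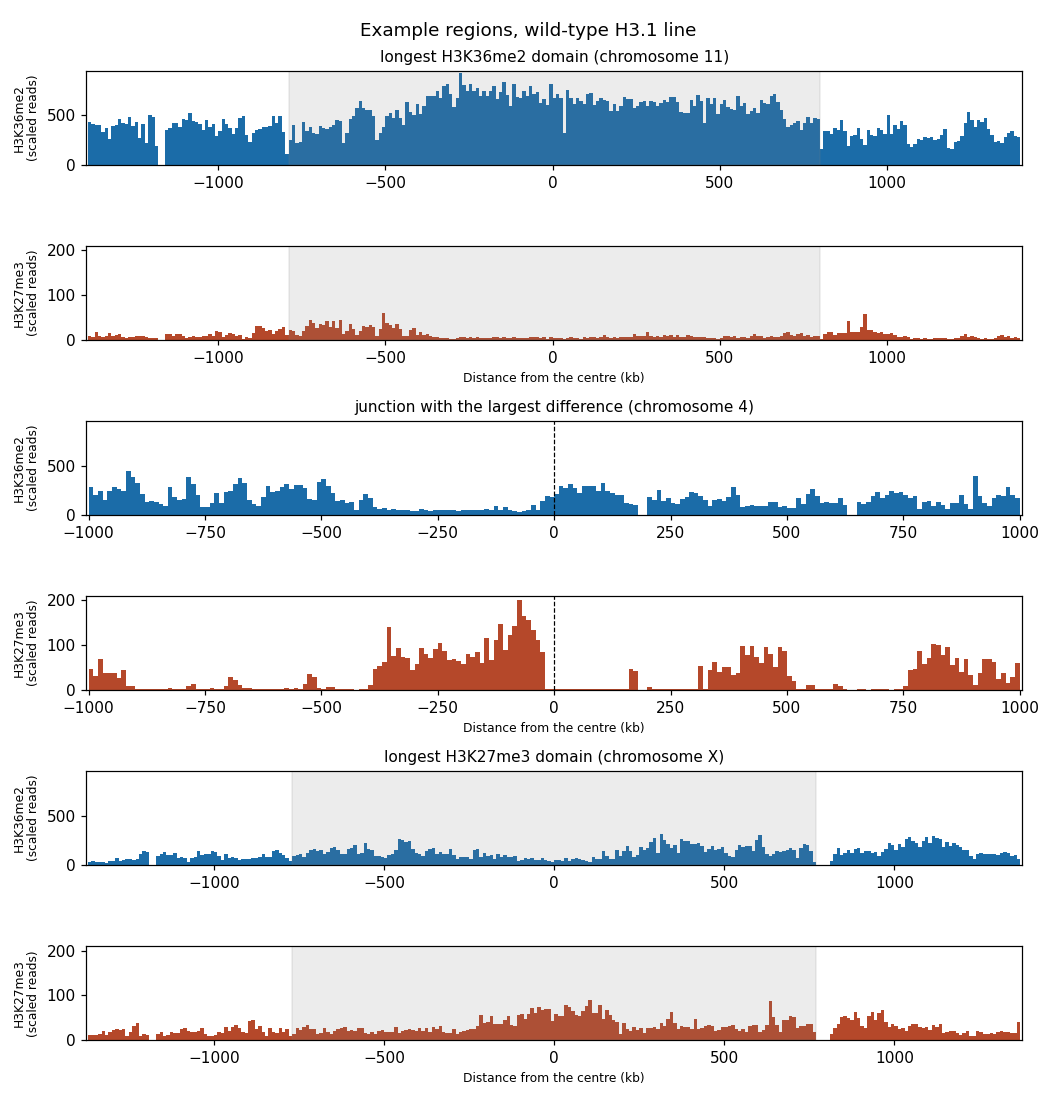
H3K36me2 (blue) and H3K27me3 (red) in scaled reads per 10 kb bin against distance in kb from the centre, for the longest H3K36me2 domain, the junction with the largest difference and the longest H3K27me3 domain in WT. Grey marks the domain, the dashed line the end of the H3K36me2 domain, and blank columns are intervals of other widths. The junction on chromosome 4 passes within 20 kb to mean H3K27me3 of 136 on the left and 2.35 on the right.

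Long domains of the 2 marks met directly in 125 places, where a domain of at least 100 kb of each mark lay at most 20 kb apart; 3 of them were on X. Of 2043 such H3K36me2 domains, 122 (5.97%) had a junction of this kind. In the median junction, the 100 kb on the H3K36me2 side averaged 330 scaled reads of H3K36me2 and 8.59 of H3K27me3, and the 100 kb on the other side 130 and 38.4. The sharpest lay on chromosome 4, between an H3K36me2 domain at 44790001 to 44940000 and an H3K27me3 domain at 44400001 to 44770000. H3K36me2 averaged 270 on its own side (212 to 308 in single bins) and 66.1 on the other (35.6 to 146). H3K27me3 averaged 2.35 on the H3K36me2 side (1.53 to 2.83) and 136 on its own (84.7 to 201). Single bins on the 2 sides did not overlap in either mark.

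The other named junctions had the same form, with no gap between the domains. They were at 147940000 on chromosome 2, 4350000 on chromosome 6 and 65240000 on chromosome 14. H3K36me2 was 340 to 498 scaled reads on its own side and 60.3 to 67.5 on the other. H3K27me3 was 3.46 to 4.61 on the H3K36me2 side and 68.4 to 94.4 on its own. Junctions were chosen by this contrast, so its size describes the selected sites.

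Most domain edges were not of this kind. Just outside autosomal H3K36me2 domains, H3K27me3 was high in 27.8% of first bins and in 35.3% of bins centred 95 kb out, against 23.9% of the last bins inside and 29.6% of all autosomal bins. Over the 100 kb on each side, the median edge had 7.84 scaled reads of H3K27me3 outside and 7.16 inside, and H3K27me3 was higher outside at 55% of 7532 edges. At H3K27me3 edges the contrast was larger: H3K36me2 over 100 kb had medians of 155 outside and 107 inside, and was higher outside at 66.4% of 7938 edges. On autosomes, leaving an H3K27me3 domain thus went with more H3K36me2 more often than leaving an H3K36me2 domain went with more H3K27me3. On X the direction was the other one: H3K36me2 was higher outside at 33.6% of 658 H3K27me3 edges, with a median difference of -3.24 scaled reads.

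**Figure D4:**
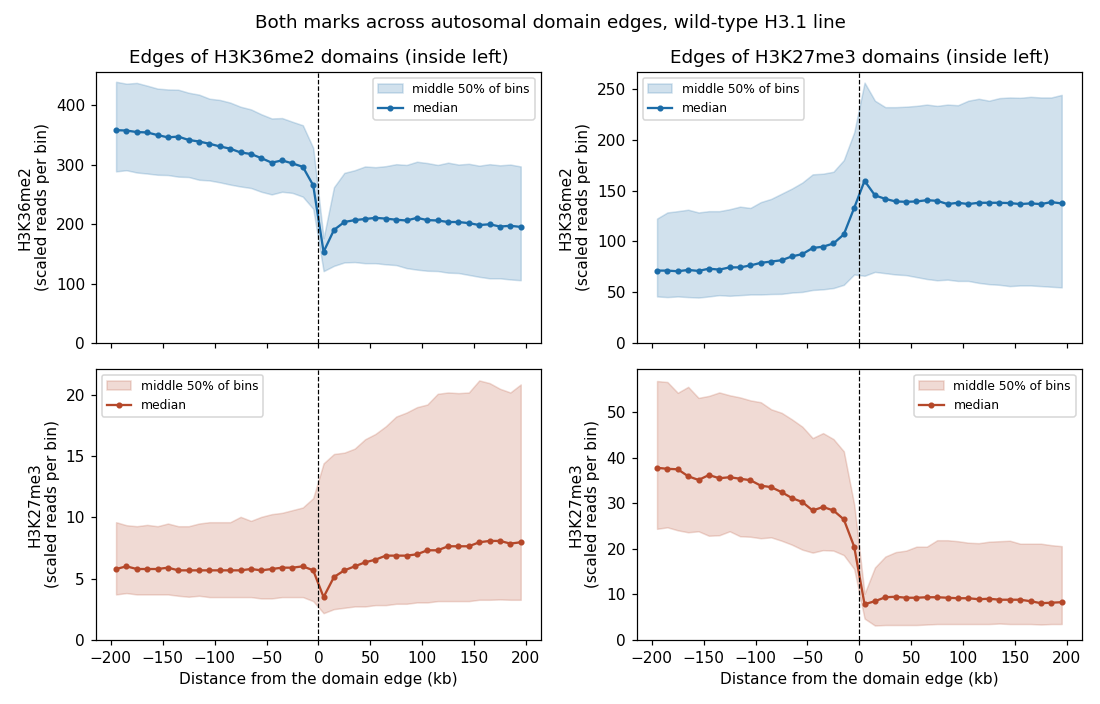
Median and middle 50% of bins for H3K36me2 (top) and H3K27me3 (bottom), in scaled reads per bin, against distance in kb from the edge of autosomal H3K36me2 domains (left) and H3K27me3 domains (right) in WT; negative distances are inside. The step of a domain's own mark follows from its definition; beyond H3K36me2 edges H3K27me3 dips to 3.49 in the first bin and then climbs, and beyond H3K27me3 edges H3K36me2 peaks at 160 in the first bin.

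The first bin outside an H3K36me2 domain had a median of 3.49 scaled reads of H3K27me3, against 5.67 in the last bin inside and 5.12 in the next bin out. H3K27me3 thus dipped at the edge itself, in a bin picked for lying below the H3K36me2 threshold. Single bins below the H3K36me2 threshold that were flanked by high bins on both sides numbered 4849 on autosomes. In the 4422 of them at or above the H3K36me2 median, H3K27me3 was lower than in the flanks in 56.4% and high in 33.8%, against 30.3% of flanking bins. Where such a gap fell below the H3K36me2 median (427 autosomal gaps, with 79.5 scaled reads of H3K36me2 in the gap and 259 in its flanks), H3K27me3 had a median of 2.73 in the gap and 7.41 in the flanks. H3K27me3 was lower than the mean of the flanks in 90.9% of these gaps and high in 12.9%, against 30.3% of flanking bins. Of these deep interruptions 54.6% were below 0.5 times the H3K27me3 median, against 15.5% of their flanking bins. For the shallow and far more numerous ones the shares were 34.9% and 21.3%. Mappability of such bins was not tested.

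H3K36me2 rose from the inside of autosomal H3K27me3 domains toward their edges. The median of H3K36me2 was 160 scaled reads in the first bin beyond an autosomal H3K27me3 domain, 138 at 95 kb outside, 133 in the last bin inside and 78.9 at 95 kb inside. H3K36me2 was high in 40.2% of these first bins, 34.8% at 95 kb outside, 28.6% in the last bin inside and 12.6% at 95 kb inside. H3K36me2 was thus lower the deeper inside, where only the longer domains contribute. The first bin outside was picked for lying below the H3K27me3 threshold, whereas 42.8% of bins at 95 kb outside were H3K27me3-high. Of all autosomal bins at 0.5 to 1 and 1 to 2 times the H3K27me3 median, 33.2% and 47.8% were H3K36me2-high. Whether H3K36me2 is raised at the border itself was not tested.

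Neighbouring bins showed the same order of states. On autosomes, the neighbour of a bin high in H3K36me2 alone was in the same state in 83692 of 111058 pairs. Of the neighbours in another state 55.1% were high in neither mark, 32.6% were high in both and 12.3% were high in H3K27me3 alone. Among all autosomal bins not high in H3K36me2 alone, these states made up 60.9%, 8.90% and 30.2%. A bin high in H3K36me2 alone thus bordered a bin high in both more often than one high in H3K27me3 alone. The first step takes a change in 1 mark and the second a change in both. Levels of adjacent bins were correlated (0.91 for H3K36me2, 0.81 for H3K27me3), and the part of this in the order was not tested.

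Runs high in both marks for 50 kb or more numbered 498, of which 66 were on X, and the longest spanned 210 kb. It lay on X at 163430001 to 163640000, with 285 scaled reads of H3K36me2 (280 to 291) and 19.9 of H3K27me3 (19.2 to 20.5). The longest on an autosome was on chromosome 2 at 78950001 to 79150000, with 347 (341 to 354) and 30.2 (29.4 to 31). Its single bins held 258 to 408 scaled reads of H3K36me2 and 14.8 to 69.1 of H3K27me3, above the thresholds of 193 and 12 that chose them. Such stretches were short beside those high in one mark, with an N50 of 70 kb.

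Bins below 0.5 times the median in both marks made up 7.24% of all bins (7.22% on X and 7.24% on autosomes), and runs of 50 kb or more of them numbered 594. The longest was on chromosome 5 at 94570001 to 95090000 (520 kb), with 5.09 scaled reads of H3K36me2 and 0.535 of H3K27me3 per bin, followed by 450 kb on chromosome 7 (7340001 to 7790000), 400 kb on chromosome 14 (3900001 to 4300000) and a further 380 kb on chromosome 7 (8750001 to 9130000). In these 4, H3K36me2 averaged 5.09 to 9.91 and H3K27me3 0.535 to 1.22, with single bins at 0 reads of H3K27me3 in each. Mappability of these stretches was not tested. The share of bins low in both marks was 1.90% on chromosome 19 and 15.6% on chromosome 7, the extremes among autosomes.

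The X chromosome differed from every autosome in both marks. Its median H3K36me2 was 38.2 scaled reads, against 61.1 (chromosome 7) to 174 (chromosome 13) on autosomes, and its median H3K27me3 was 16.9, against 4.25 (chromosomes 5 and 7) to 7.68 (chromosome 19). Relative to the median of all autosomal bins these are log2 differences of -1.43 and 1.58. On X 8.78% of bins were H3K36me2-high and 61.8% were H3K27me3-high, against ranges of 17.4% to 46.3% and 24.4% to 38.0% over the 19 autosomes. No autosome overlapped X in any of these 4 measures.

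**Figure D5:**
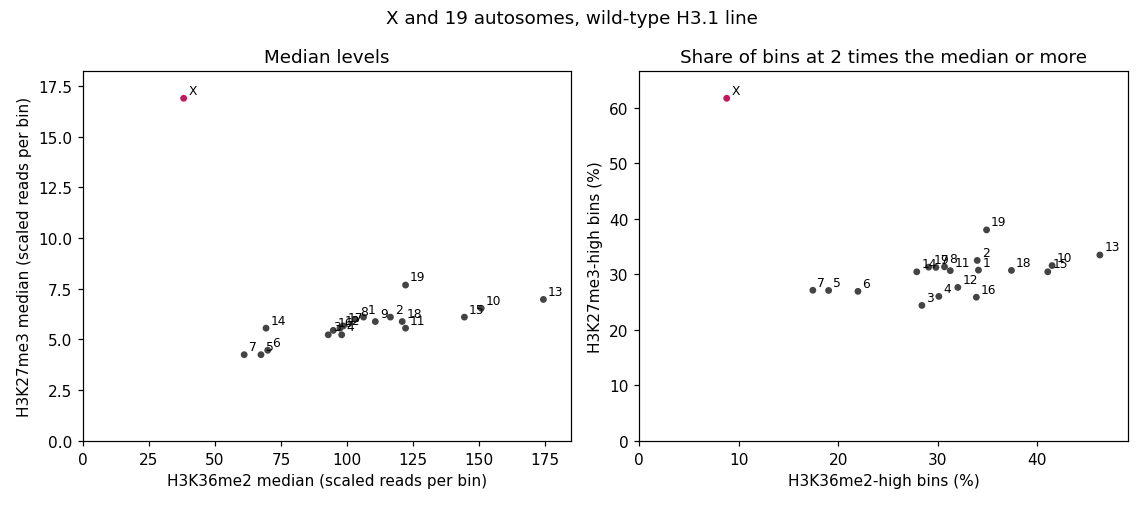
Each chromosome of WT by H3K36me2 (horizontal) and H3K27me3 (vertical), as median scaled reads per bin (left) and as the percentage of bins at 2 times the genome median or more (right), with X in pink and the 19 autosomes in grey. X stands alone at 38.2 and 16.9 scaled reads, and the autosomes lie between 61.1 and 174 on the horizontal axis and 4.25 and 7.68 on the vertical one.

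Domains on X had the reverse proportions of those on autosomes. H3K27me3 formed 395 domains on X that covered 55.9% of its bins, with an N50 of 350 kb, against 120 to 180 kb on single autosomes. H3K36me2 formed 78 that covered 4.49%, with an N50 of 100 kb, against 110 to 200 kb. On X, 41 H3K27me3 domains reached 500 kb and 7 reached 1000 kb, against 26 and 0 on all autosomes together. H3K27me3 on X also kept a Spearman correlation with itself of 0.67 at 500 kb, against 0.11 on autosomes.

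The marks did not exclude each other on X in the way they did on autosomes. Of 1365 H3K36me2-high bins on X 85.9% were H3K27me3-high, against 61.8% of all X bins; with these genome-wide thresholds, on each of the 19 autosomes the H3K36me2-high bins were H3K27me3-high less often than the chromosome's bins as a whole. The Spearman correlation between the marks was 0.61 on X, against -0.10 to 0.25 on autosomes. On X, bins at 0.5 to 1, 1 to 2 and 2 to 4 times the H3K36me2 median had median H3K27me3 of 29.0, 26.5 and 25.6 scaled reads and were H3K27me3-high in 87.2%, 86.8% and 87.5%. Bins under 0.25 times the H3K36me2 median had 4.36 scaled reads of H3K27me3, and their mappability was not tested. The 28 X bins at 4 to 8 times had 6.76 scaled reads of H3K27me3 and were high in 10.7%. H3K27me3 on X thus rose with H3K36me2 from the poorest bins, stayed level up to 4 times the H3K36me2 median, and was low in the few bins beyond. The libraries do not separate the copies of X, and the labels give no sex or karyotype for the line.

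Against X's own median an excess remained, though fewer X bins were H3K27me3-high. With each chromosome's own median, a setting chosen after the values were seen, 28.1% of H3K36me2-high bins on X were also H3K27me3-high, against 18.5% of all X bins. Under that setting the same direction was seen on chromosome 14 (33.7%, against 32.0% of its bins), and chromosome 16 was near equality (28.0% and 28.1%). Among the highest 10% of X bins in each mark, 7.32% of the H3K36me2 list was shared, against 10.1% of all X bins. For the highest 5% these shares were 1.41% and 5.0%, and at 4 times the genome median 15.2% and 35.8%. The strongest bins of the marks on X were therefore shared less often than all X bins were; for the highest 10% of autosomal bins the shares were 0.442% and 10.0%.

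The distal end of X was an exception within X. Of 192 X bins high in H3K36me2 but not H3K27me3, 66 (34.4%) lay in the last 1.5 Mb of X bins, from 165140001 on, which held 0.901% of X bins. Of 33 X bins at 4 or more times the H3K36me2 median, 30 lay there. The longest H3K36me2 domain of X, at 165860001 to 166170000, averaged 440 scaled reads of H3K36me2 (434 to 446) and 6.36 of H3K27me3 (6.07 to 6.66), with no H3K27me3-high bin. Over the 140 bins of this end, 74.3% were H3K36me2-high and 45.7% were H3K27me3-high, against 8.78% and 61.8% of all X bins. Without it, the Spearman correlation between the marks on X was 0.62. This end was chosen after the values were seen, and it is described with no test.

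Autosomes differed from one another more in H3K36me2 than in H3K27me3. Chromosome 13 had the most H3K36me2-high bins (46.3%), followed by chromosome 10 (41.5%) and chromosome 15 (41.0%), and chromosomes 7, 5 and 6 the fewest (17.4%, 19% and 22.0%). For H3K27me3 the range was 24.4% on chromosome 3 to 38.0% on chromosome 19. Chromosome medians of the marks went together over the 19 autosomes (Spearman correlation 0.87), as did the shares of high bins (0.58). The points share both libraries, and the copy number of each chromosome enters both marks. Chromosomes with a low H3K36me2 median also had more bins low in both marks (Spearman correlation -0.87). The part of copy number or mappability in these differences was not tested. Along the autosomes, in 10 equal parts of the covered length, the median over chromosomes of H3K36me2 stayed between 80.8 and 129 scaled reads and that of H3K27me3 between 5.23 and 6.54, and neither rose or fell steadily along them.

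Scored by balance, the log2 ratio of the marks in multiples of their medians plus 0.25, 68800 bins (27.8%) leaned at least 2-fold toward H3K36me2 and 79629 (32.2%) toward H3K27me3. On X these shares were 0.695% and 75.4%, and on autosomes 29.6% and 29.3%. The near-even split of the autosomes follows in part from dividing each mark by a median taken mostly over autosomal bins; relative to means, 79409 bins leaned to H3K36me2 and 51705 to H3K27me3. X leaned to H3K27me3 in most of its bins.

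Over all chromosomes, the K36M line had shorter domains of both marks than WT, measured against each library's own median. H3K36me2 domains had an N50 of 120 kb and a longest of 610 kb in K36M, against 150 kb and 1590 kb in WT. H3K27me3 domains numbered 1785 with an N50 of 80 kb and a longest of 450 kb in K36M, against 4601, 160 kb and 1540 kb in WT. On X alone H3K36me2 domains were not shorter: 143 with a median of 80 kb and a longest of 330 kb in K36M, against 78, 70 kb and 310 kb in WT. Domains of 500 kb or more numbered 4 for H3K36me2 and 0 for H3K27me3 in K36M, against 56 and 67 in WT. By the same rule 22.6% of bins were H3K36me2-high and 15% H3K27me3-high in K36M, against 29.7% and 31.6% in WT. Of H3K36me2-high bins 5.46% were also H3K27me3-high in K36M, against 22.9% in WT. A threshold set from the median moves with the level and background of each library, and with 1 library per line these differences have no replicate check. The median of H3K27me3 was 29.2 scaled reads in K36M, against 6.0 in WT, so its threshold rose. For H3K36me2 the medians were 6.16 and 96.7, so its threshold fell. In the 6 longest WT H3K27me3 domains, mean H3K27me3 was 27.5 to 50.7 in WT and 57.9 to 84.1 in K36M. In the 4 with the highest mean it was 115 to 275 and 99.1 to 271. Shorter H3K27me3 domains in K36M thus do not by themselves show lower H3K27me3.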

How the data were processed

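The deposited table holds signal per genomic interval for 4 immunoprecipitated libraries, and each value is a read number times 1 factor that the authors applied. Division by the smallest step (0.636 for H3K36me2 and 0.109 for H3K27me3 in WT) gave whole reads, to within 0.01 of a read, for 100% of values. How the factor was derived from fly reads is not stated. The submitters' processing notes name Bowtie 1.0.0 with the builds mm9 and dm6; filters and removal of duplicates are not stated. Per the labels, added fly chromatin equalled 5% of the mouse chromatin, though another label states equal parts. Dividing each library by its own median cancels the factor, so shares and domains do not depend on it. Recovered reads were 59618463 for H3K36me2 and 31847430 for H3K27me3 in WT; the K36M libraries held 51982053 and 29817968.

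Groups came from sample titles. The inputs, whose titles name H3.3 and genotypes H3.1, were not analysed here, nor was H3K36me3. Intervals of other widths and breaks in position end a run. Regions were named by rule: the 6 longest domains per mark, the 4 with the highest mean, the 4 longest runs high or low in both, and the 4 junctions with the largest balance difference; others are marked as chosen after values were seen. Members, thresholds and rules were chosen with earlier results of these data known. Alternatives covered thresholds, smoothing, thinning, pseudocounts, windows and extreme bins (above the set top percentile of either mark). Domain calls were tested on simulated domains of uniform level well above the threshold, with counting noise alone, which does not test calls near the threshold. Computation used Python (3.11.15) with numpy (2.4.6), pandas (2.3.3) and scipy (1.17.1); matplotlib (3.10.9) drew the figures.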

Additional observations from a re-analysis of the deposited data

Results flagged for a closer look

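Reads were also present in intervals that no comparison used. Their median per interval was above the 3 reads that a count of 0 allows, except on Y. The 164 bins of Y held 769 reads of H3K36me2 and 591 of H3K27me3 in WT, a median of 3 and 2 reads per bin. The 1277 bins of unplaced or random sequence held 161378 and 69475 reads, with medians of 8 and 6. The 4315 intervals of other widths with signal held 1679162 and 517008 reads, which is 2.82% and 1.62% of each library, and had medians of 54.4 and 3.49 scaled reads per 10 kb, against 96.7 and 6.0 in the bins used.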

How the results depend on the processing

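No paired analysis was possible because each mark and line had 1 library, and no library could be left out. A value was held to have moved if it changed by 1.5 times for counts and lengths or by more than the standard deviation over chromosomes otherwise. Of 113 alternative values for 21 results, 87 stayed, 26 moved and 0 changed direction. Counts, percentages and lengths cannot be negative, so for them no change of direction was possible. Another result was the H3K27me3-high share of H3K36me2-high bins minus that of all bins, at -8.72 points. Its standard deviation over chromosomes with X was 10.6, so values from -17.8 to -1.82 all counted as stayed. Chromosomes' own medians and means without extreme bins were added after the data were seen.

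For H3K36me2, 3 times the median gave 2263 domains and the highest 10% of bins 1455, against 4408; the percentage of bins in domains was 31.8 at 1.5 times the median, 9.32 at 3 times and 5.63 for the highest 10%, against 21.9. Its N50 was 230 kb both with a running mean of 3 bins and with single bins bridged, against 150 kb, and its longest domain 760 kb for the highest 10%. For H3K27me3 the highest 10% gave 1446 domains, 5.22% of bins, an N50 of 90 kb and a longest domain of 490 kb, against 4601, 24.2%, 160 kb and 1540 kb; 3 times the median gave 16.2% of bins. Its longest domain was 2610 kb with the running mean, 3650 kb with bridging and 800 kb on autosomes alone. H3K36me2-high bins were H3K27me3-high in 0.418% for the highest 10% of each mark, against 22.9%. The median correlation of the marks was 0.37 in 1 Mb windows, against 0.10. Bins leaning to H3K36me2 numbered 45025 with a pseudocount of 1, against 68800, and bins leaning to H3K27me3 51705 relative to means, against 79629. The log2 difference of X from autosomes was -2.18 for H3K36me2 with the 5th percentile subtracted and -1.0 for means without extreme bins, against -1.43. For H3K27me3 it was 0.64 for means, 0.67 for means without extreme bins and 1.92 with the 5th percentile subtracted, against 1.58. Outside minus inside H3K36me2 edges, H3K27me3 was 4.49 as a mean over edges, against a median of 0.52.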
